A study of Mus musculus with 8 samples.

Results

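De novo lipogenesis, the making of fatty acids from carbohydrate carbon, was followed through 10 genes in mouse liver: Fasn, Acly, Acaca, Acacb, Scd1, Elovl6, Me1, Acss2, Srebf1 and Mlxipl. They were read from every probe set that the platform annotation assigns to these symbols, 24 of 45037. Of the 10 genes, 9 had a probe set above the filter on weak signals, which kept 12112 of 18193 genes in all. Acacb was below it and is given as values only.

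The livers called MET KO + EGFRi came from mice that carried a floxed Met gene and a tamoxifen-switched Cre (Metff/ff:ERCre+/+). These mice received 5 injections of tamoxifen (100 µl at 10 mg/ml), which deletes Met throughout the body, and a diet with canertinib, an EGFR inhibitor, aimed at 80 mg/kg per day and begun 1 day before TCPOBOP. The control livers came from littermates of the same genotype that were given the corn oil vehicle only. Mice of both arms were given TCPOBOP by gavage at 3 mg/kg, a CAR agonist that makes mouse hepatocytes divide, and livers were taken on days 0, 1, 2 and 5. Livers of a group were pooled and read on 1 array, so the 8 groups have 1 array each and no replicate. The deletion, the diet and the tamoxifen are present together in 1 arm and cannot be told apart. In that arm, time after TCPOBOP and time since the diet began rise together, and these cannot be told apart either. No group of days 1, 2 and 5 went without TCPOBOP, so a change named for TCPOBOP below means days 1, 2 and 5 against day 0. Whether the day 0 mice had been given TCPOBOP, and how many mice made a pool, is not given in the labels.

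In lipogenesis, citrate leaves the mitochondrion and is cleaved to acetyl-CoA, which is carboxylated to malonyl-CoA and built into palmitate by a single large synthase. Palmitate is then lengthened and desaturated to the fatty acids that liver stores as triglyceride. Insulin drives the pathway through SREBP-1c, encoded by Srebf1, and glucose drives it through ChREBP, encoded by Mlxipl. In liver it is high after feeding and low in fasting.

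The arrays were alike in overall brightness, with a median signal of 224 to 251, and actin read 1.57 to 2.36 times higher at its 3' end than at its 5' end. The 8 of 11 listed hepatocyte markers that were measured summed to 247439 to 338076 in MET KO + EGFRi and 213383 to 334062 in control. Averaged over the days, 6 were above 0 and 2 below, with a median log2 difference of 0.16, and 0 were called. The largest differences were 0.64 for Hnf4a and 0.62 for Fgb (limma, adjusted p of 0.176 and 0.128), both higher in MET KO + EGFRi. Adipose tissue also makes these enzymes. Its markers Adipoq and Lep were below the filter. The 4 measured adipocyte markers summed to 9213 to 18521 in MET KO + EGFRi and 6913 to 13610 in control. Most of each sum was Pck1, also a liver gene, which read 7279 to 16688 in MET KO + EGFRi and 4921 to 11656 in control. The log2 difference between the arms, averaged over the days, was 0.03 for Retn, 0.04 for Fabp4 and -0.08 for Lipe. On days 0, 1, 2 and 5 Met itself read 1502, 1049, 2034 and 1358 in MET KO + EGFRi, against 1444, 926, 1336 and 1149 in control, by its strongest probe set. Since the labels do not name the exon removed, these signals do not check the deletion. Signals here are per pool of whole liver, in which fewer cells of a type and less RNA per cell cannot be told apart. With 1 array per group, precision is limited by the number of arrays.

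The stretches of DNA before the starts of 4 of these genes are shown as description, and no result rests on the sequences. Elovl6 and Me1 were chosen because they passed the test between the arms. Fasn and Srebf1 were chosen because they had the members' largest interaction of arm with TCPOBOP, that is, with days 1, 2 and 5 against day 0. Each line gives the 250 bases before a RefSeq start (GRCm38.p6), 5′ to 3′ on the strand of the gene. Capitals mark the NF-Y box CCAAT and the Sp1 box GGGCGG on either strand, the binding letters of general factors that act beside SREBP.
Elovl6, chr3:129532136-129532385, plus strand: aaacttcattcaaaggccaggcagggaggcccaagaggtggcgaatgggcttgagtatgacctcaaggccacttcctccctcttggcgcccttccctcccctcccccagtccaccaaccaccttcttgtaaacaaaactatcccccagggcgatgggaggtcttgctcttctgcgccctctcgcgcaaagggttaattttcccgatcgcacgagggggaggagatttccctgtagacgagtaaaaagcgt
Me1, chr9:86695915-86696164, minus strand: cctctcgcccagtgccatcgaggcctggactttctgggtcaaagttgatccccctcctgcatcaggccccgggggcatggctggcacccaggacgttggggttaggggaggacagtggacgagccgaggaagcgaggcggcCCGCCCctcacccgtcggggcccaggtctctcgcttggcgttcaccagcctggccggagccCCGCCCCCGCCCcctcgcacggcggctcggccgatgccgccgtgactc
Fasn, chr11:120824548-120824797, minus strand: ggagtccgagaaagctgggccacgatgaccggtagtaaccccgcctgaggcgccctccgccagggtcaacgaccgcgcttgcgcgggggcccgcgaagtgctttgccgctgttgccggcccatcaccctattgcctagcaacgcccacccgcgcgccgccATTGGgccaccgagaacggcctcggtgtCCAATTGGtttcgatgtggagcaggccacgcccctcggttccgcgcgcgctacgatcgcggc
Srebf1, chr11:60210472-60210721, minus strand: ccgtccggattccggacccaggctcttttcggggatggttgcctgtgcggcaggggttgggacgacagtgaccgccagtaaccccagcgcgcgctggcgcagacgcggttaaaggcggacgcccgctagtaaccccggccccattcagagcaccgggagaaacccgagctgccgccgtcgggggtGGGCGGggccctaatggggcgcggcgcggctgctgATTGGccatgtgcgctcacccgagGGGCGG
The Fasn window held 3 NF-Y boxes, of which the nearest pair overlaps, and the Me1 window, at 1 of the 2 starts listed for it, held 3 Sp1 boxes. The other Me1 window held 1 NF-Y box and no Sp1 box. The Srebf1 window, at 1 of the 3 starts listed for that gene, held 1 NF-Y box and 2 Sp1 boxes, and the Elovl6 window held neither.
RefSeq promoters matched 9 of the 10 genes, all but Scd1, with 13 windows. NF-Y boxes were in 7 of the 13, against 33.8 percent of all 32851 windows, and Sp1 boxes in 6 of the 13, against 32.7 percent. The SREBP letters TCACNCCAC were in 1 of the 13, a Mlxipl window, against 1.05 percent of all, and the E-box CACGTG was in 1, also of Mlxipl, against 6.02 percent. The paired ChREBP element was searched only as 2 exact copies of CACGTG set 5 bases apart. That strict form was in 0 of all windows, so the search cannot show whether the members have or lack the element. These are matches of letters in a short window and say nothing of the factors' binding.

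Averaged over the 4 days, lipogenic genes had lower signals in MET KO + EGFRi livers than in control livers. The fatty acid elongase Elovl6 and malic enzyme Me1 fell past the test's threshold, 2 of 9 members, against 0.165 percent of all genes called lower and 0.578 percent called in either direction. All 9 members had a mean difference below 0, with a median of -0.98 on the log2 scale, where the median of all genes was 0.00215. At an unadjusted p under 0.05 there were 8 lower members, against 5.99 percent of genes. By the strongest probe set of each gene, 7 of the 9 members were lower on 4 of 4 days, against 10.3 percent of genes. In 5 every MET KO + EGFRi array lay below every control array, against 2.75 percent.

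**Figure D1:**
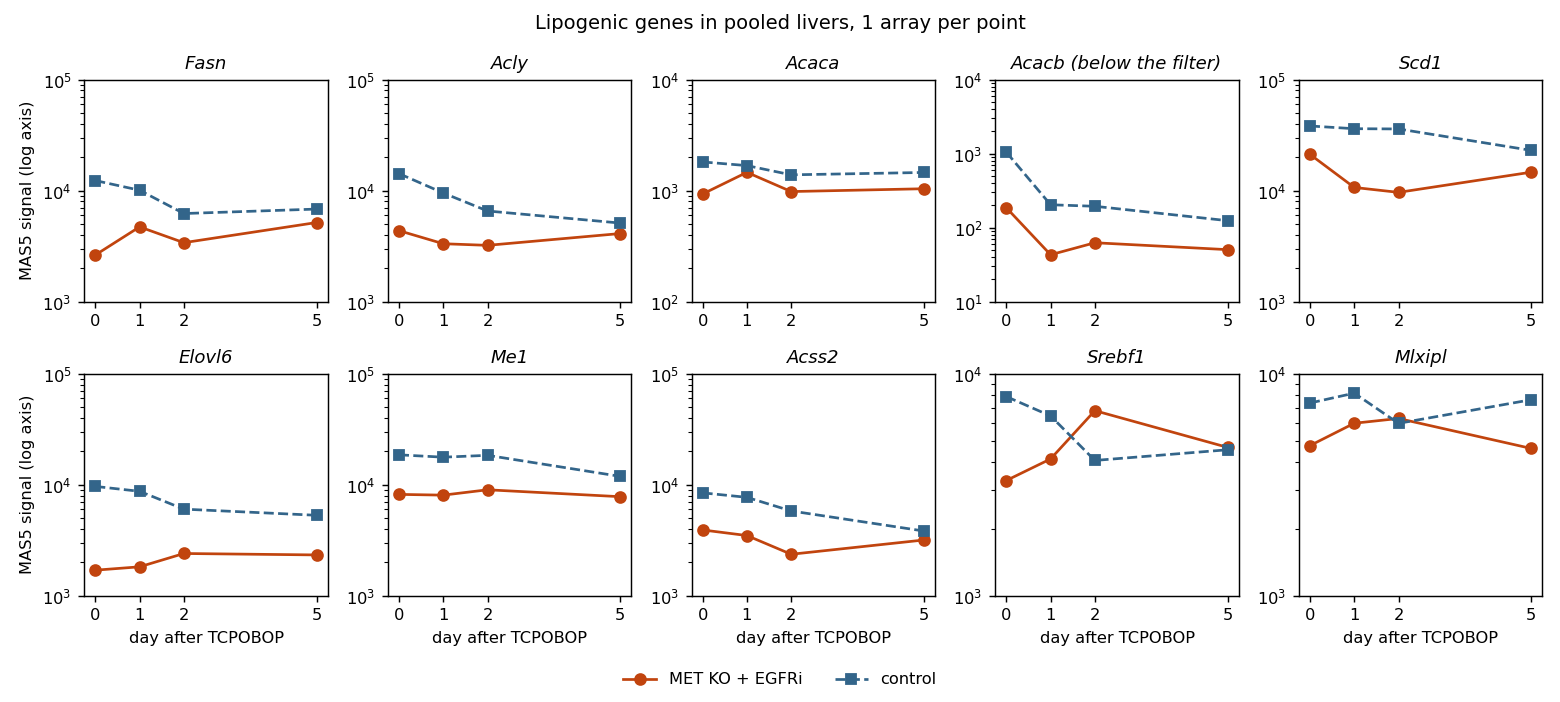
MAS5 signal on a log axis against the day after TCPOBOP for the strongest probe set of each of the 10 genes, with MET KO + EGFRi in orange circles and control in blue squares. Each point is 1 array of pooled livers; the orange line lies below the blue one on every day except for Srebf1 on days 2 and 5 and Mlxipl on day 2.

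Acetyl-CoA for the pathway comes from citrate through ATP citrate lyase, Acly, and from acetate through Acss2. Acly had signals of 4361, 3325, 3215 and 4108 in MET KO + EGFRi on days 0, 1, 2 and 5, against 14252, 9529.8, 6559 and 5103 in control. The control arrays run downward from day 0 to day 5 while the MET KO + EGFRi arrays stay within a narrow band. On this strongest probe set the groups do not overlap, unlike on the weaker Acly probe sets given below. The mean log2 difference was -1.13 with a standard error of 0.22 (limma, adjusted p = 0.103), which missed the threshold. Acss2 had 3914, 3485, 2363 and 3178 in MET KO + EGFRi, against 8453, 7701, 5803 and 3826 in control. Only the control array of day 5 reaches the range of the other arm, and the mean log2 difference was -0.94 ± 0.18 (SE, adjusted p = 0.0994). Both genes passed the threshold once either array of day 5 was left out, with log2 differences of -1.40 for Acly and -1.17 for Acss2 (adjusted p of 0.0368 to 0.0374 and of 0.0336 to 0.0356). Day 5 had the smallest differences, -0.31 and -0.26, so leaving it out enlarges the mean. Without an array of days 0, 1 or 2 neither gene passed, with adjusted p of 0.1985 to 0.4558 for Acly and 0.2125 to 0.4557 for Acss2.

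Me1 supplies NADPH, the reducing power that each round of fatty acid synthesis spends. It had 8188, 8062, 9009 and 7805 in MET KO + EGFRi, against 18613, 17723, 18420.4 and 11894 in control. Each control array of days 0 to 2 is more than 2 times its counterpart, and at day 5 the control signal was 1.52 times that of MET KO + EGFRi. The log2 difference was -0.98 ± 0.14 (SE, limma, adjusted p = 0.0298), lower on 4 of 4 days. Leaving out any 1 array of days 0, 1 or 2 ended this call, with adjusted p from 0.105 to 0.25.

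Acetyl-CoA carboxylases make malonyl-CoA, Acaca in the cytosol for synthesis and Acacb at the mitochondrion, where malonyl-CoA holds back fatty acid entry. Acaca had 934, 1463, 982 and 1041 in MET KO + EGFRi, against 1816, 1683, 1389 and 1459 in control. Averaged over the days this was the smallest difference among the tested enzymes, and the groups overlap at day 1 of MET KO + EGFRi (log2 difference -0.51 ± 0.15, SE, adjusted p = 0.231). Acacb had 186, 43, 62.5 and 50.4 in MET KO + EGFRi, against 1049.7, 203.9, 194.5 and 124 in control. Its signal was lower on 4 of 4 days and in both arms was highest on day 0, by more than 2 times over any later day. Without the filter its log2 difference was -1.27 (adjusted p = 0.206).

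Fatty acid synthase, Fasn, had 2629, 4717, 3397 and 5165 in MET KO + EGFRi, against 12335, 10093, 6221 and 6826 in control. The arms stand furthest apart on day 0, where control was 4.69 times MET KO + EGFRi, and closest on day 5, where it was 1.32 times. They do not overlap. Its log2 difference of -1.14 ± 0.26 (SE, limma, adjusted p = 0.150) had the widest error among the enzymes and missed the threshold.

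Elovl6 lengthens palmitate to stearate, and Scd1 makes oleate and palmitoleate from these saturated acids. Elovl6 had 1698, 1821, 2401 and 2330.2 in MET KO + EGFRi, against 9663, 8728, 6028 and 5306 in control. Every MET KO + EGFRi array is far below every control array, and it was the member with the largest difference averaged over the days, -1.79 ± 0.23 on the log2 scale (SE, limma, adjusted p = 0.019). Leaving out any 1 array of days 0, 1 or 2 ended this call too, with adjusted p from 0.0516 to 0.141. Scd1 had 21249, 10692, 9653 and 14684 in MET KO + EGFRi, against 38296, 36187, 36004 and 23062 in control. Control was 3.38 and 3.73 times MET KO + EGFRi on days 1 and 2, and 1.80 and 1.57 times on days 0 and 5. Acss2 likewise had its widest gap on day 2, at 2.46 times. The groups do not overlap, and the log2 difference of -1.29 ± 0.23 (SE) missed the threshold on this probe set (adjusted p = 0.0729).

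The genes of the 2 transcription factors behaved less uniformly than those of the enzymes. Srebf1 had 3304, 4134, 6823 and 4659 in MET KO + EGFRi, against 7898, 6461, 4069.9 and 4547 in control. MET KO + EGFRi was lower on days 0 and 1, higher on day 2 and level with control on day 5. The mean log2 difference was -0.28 ± 0.29 (SE, adjusted p = 0.766), and it was 0.04 once either array of day 0 was left out. Mlxipl had 4748, 5987, 6291 and 4607 in MET KO + EGFRi, against 7386, 8182, 5980.1 and 7646 in control. It was lower on days 0, 1 and 5, with overlapping groups and a log2 difference of -0.43 ± 0.16 (SE, adjusted p = 0.347). Signals of messenger RNA do not report the processing of SREBP-1c or the activity of ChREBP.

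Several genes have more than 1 probe set, and these were compared in a fit over all 22519 probe sets above the filter. Of the 18 member probe sets above it, 18 had a mean difference below 0, as did 6007 of 12112 genes. Lower on 4 of 4 days were 10 of the 18, and in 6 of the 18 the groups did not overlap. By gene, 10.3 percent of all genes were lower on 4 of 4 days and 2.75 percent had no overlap in that direction. Of the 18, 4 were called lower, against 0.12 percent of all probe sets. The 4 belong to 3 genes: 2 of Elovl6, 1 of Me1 and 1 of Scd1. The weaker Scd1 probe set had 3048, 1148, 957 and 1025 in MET KO + EGFRi, against 9165, 3749, 4794 and 1890 in control. Unlike the stronger one it overlaps between the arms, since the control array of day 5 is below the MET KO + EGFRi array of day 0, yet its log2 difference of -1.57 ± 0.21 (SE, adjusted p = 0.0304) passed the threshold. Its log2 difference was -1.57, -1.65, -2.24 and -0.84 on the 4 days, without the narrow gap that the stronger one had on day 0.
The second Elovl6 probe set had a log2 difference of -1.77 (adjusted p = 0.0482), close to that of the first, and 1 other, weaker one had -0.60 (adjusted p = 0.474). The second Me1 probe set had -1.15 with a larger error of 0.29 (adjusted p = 0.210), and at day 5 it read 2329 in MET KO + EGFRi and 2239 in control. Among the other Acly probe sets 2 had -0.86 and -0.85, and 1 had -0.03 with signals of 160 to 540. In each of these the groups overlap. On day 5 they read 2709.7, 770.4 and 287.5 in MET KO + EGFRi, against 2420.3, 770.4 and 226.1 in control. The second Acaca probe set read 829 in MET KO + EGFRi and 391 in control at day 5, against the direction of the first.

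**Figure D2:**
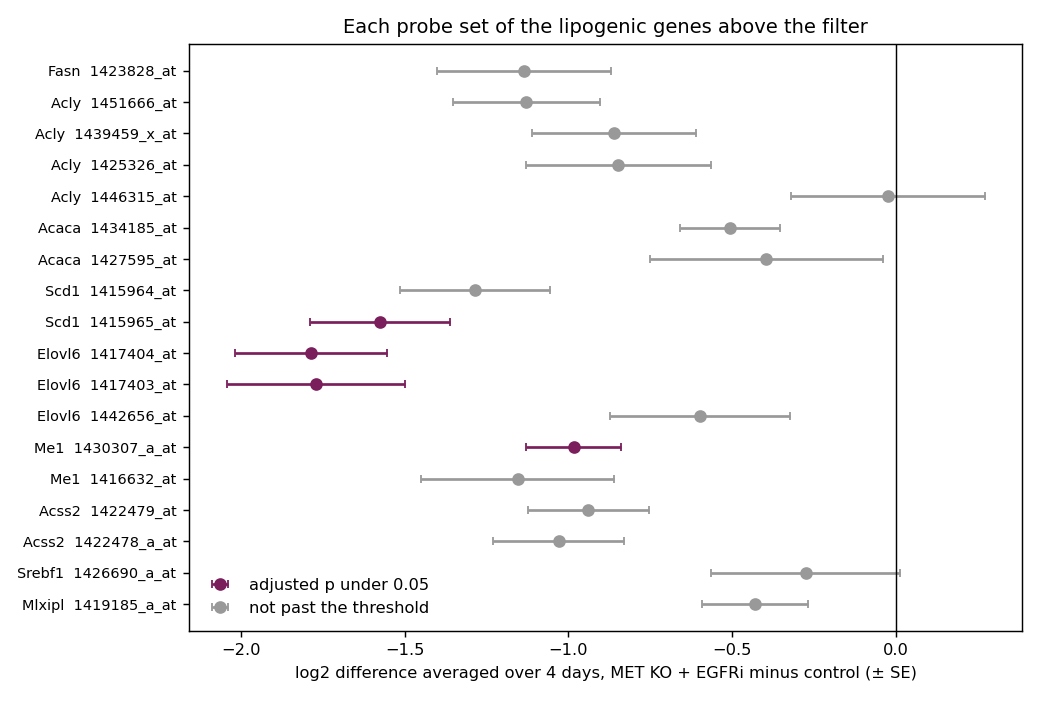
Log2 difference averaged over 4 days, MET KO + EGFRi minus control, with its standard error, for the 18 lipogenic probe sets above the filter. The 4 purple points passed the threshold, and all 18 points lie left of 0.

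The days were also read one by one. On days 0, 1, 2 and 5 the members' median log2 difference was -1.18, -1.13, -1.01 and -0.46, against -0.03, 0.01, 0.02 and -0.01 for all genes. Members at least 2-fold lower in MET KO + EGFRi numbered 6, 6, 5 and 1 of 9, against 2.18, 2.63, 2.03 and 2.16 percent of all genes. Elovl6 was the 1 that remained at least 2-fold lower on day 5. A single day rests on 1 array per arm, and no p-value is given for it.

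**Figure D3:**
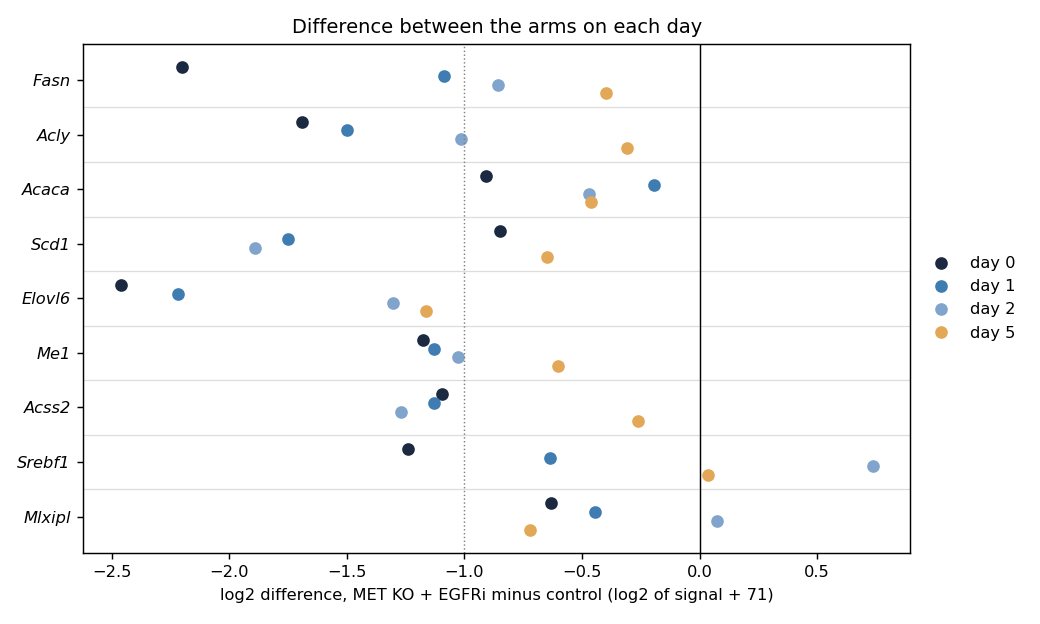
Log2 difference between the arms, MET KO + EGFRi minus control, on each of the 4 days for the 9 members above the filter, with 1 array per arm behind each point. Points left of the dotted line are at least 2-fold lower; only Elovl6 stays there on day 5.

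Each arm was also set against its own day 0. In MET KO + EGFRi livers the members' median log2 change from day 0 was 0.10, 0.14 and -0.04 on days 1, 2 and 5, and in control livers it was -0.13, -0.54 and -0.79. In control, 8 of 9 members were below their day 0 signal on all 3 later days, against 29.4 percent of all genes. At least 2-fold below day 0 in control there were 0, 1 and 2 members on days 1, 2 and 5, against 2.27, 2.73 and 2.57 percent of genes. Acly was the member on day 2, with a log2 change of -1.11, and Acly and Acss2 were those on day 5, with -1.47 and -1.13. In MET KO + EGFRi the counts were 0, 1 and 0, against 1.76, 2.09 and 2.7 percent, and the 1 was Scd1, with -1.13 on day 2. Srebf1 was the 1 member at least 2-fold above day 0 in that arm, with 1.03 on day 2, against 2.13 percent of genes. No member was 2-fold above day 0 on days 1 or 5 in MET KO + EGFRi, against 1.6 and 2.82 percent of genes, or on days 1, 2 or 5 in control, against 2.58, 2.58 and 2.82 percent. Fasn, Acaca, Elovl6 and Srebf1, 4 of 9, were above day 0 in MET KO + EGFRi and below it in control on all 3 later days, against 5.87 percent of genes. A day 0 signal far below control favours this pattern, and that percentage is over genes of any day 0 difference.

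**Figure D4:**
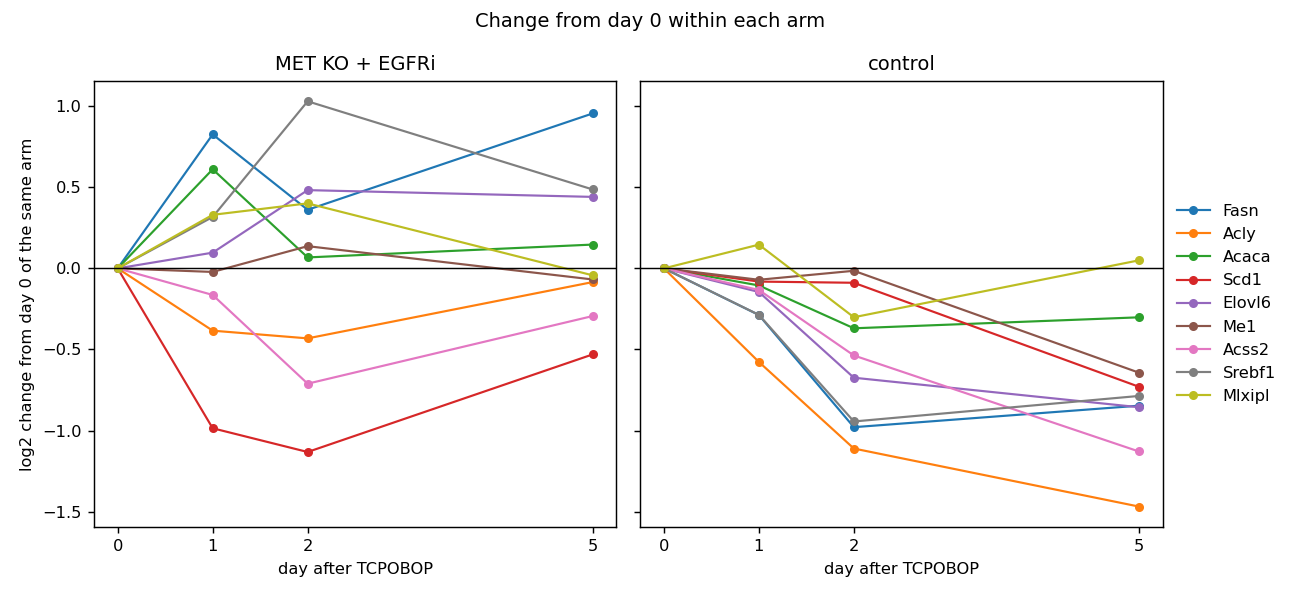
Log2 change of each member from day 0 of its own arm against the day after TCPOBOP, MET KO + EGFRi on the left and control on the right. On day 5 in control 8 of the 9 lines lie below 0, while in MET KO + EGFRi the lines spread on both sides of it.

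Averaged over the arms, 0 of 9 members were called between days 1, 2 and 5 and day 0, against 0.0661 percent of all genes called lower and 0.487 percent called in either direction. At an unadjusted p under 0.05 there were 2, Acly and Acss2, both lower (log2 -0.68 and -0.49, adjusted p of 0.432 and 0.486), against 3.87 percent of genes lower at that p. The test of whether the difference between the arms on days 1, 2 and 5 differed from that on day 0 called 0 members and 0 percent of all genes. In simulated data this test called none of the planted changes, so its lack of calls does not show that the difference stayed the same. At an unadjusted p under 0.05 the interaction was positive for 2 members, Fasn (log2 1.42 ± 0.36, SE, adjusted p = 0.875) and Srebf1 (1.28 ± 0.51, adjusted p = 0.999), against 2.07 percent of genes. Of the 264 genes at least 2-fold lower at day 0, 249 were nearer to or above control on day 5 (94.3 percent), and so were the 6 members among them. These genes were picked by their day 0 difference, so a smaller difference on another day is largely built in by the choice. Over all genes, those at least 2-fold lower numbered 264, 319, 246 and 262 on days 0, 1, 2 and 5. Over those 264 genes the median log2 difference was -1.30, -0.58, -0.11 and -0.21 on the 4 days. Over the 6 members (Fasn, Acly, Elovl6, Me1, Acss2 and Srebf1) it was -1.47, -1.13, -1.02 and -0.35, and all but Srebf1 were lower on every day, against 32.6 percent of the 264. The control array of day 0 and the MET KO + EGFRi array of day 0 enter every one of these changes.

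Genes around the pathway were also read. Of 16 measured genes for other lipogenic enzymes and direct modulators, 1 was called, with a median log2 difference of -0.46 and 14 below 0. The called gene was Fads2, the delta-6 desaturase of polyunsaturated acids. It had 1933, 1363, 2059.8 and 1503 in MET KO + EGFRi, against 6031, 3538, 3756 and 3239.5 in control (log2 difference -1.21, adjusted p = 0.0179), with no overlap. Its call was lost without 1 array of days 0, 1 or 5, with adjusted p up to 0.155. Aacs, which activates acetoacetate in the cytosol, had -1.04, Mid1ip1, an activator of acetyl-CoA carboxylase, -0.69, and the elongase Elovl5 -0.63, with adjusted p of 0.135, 0.228 and 0.176.
Genes that supply carbon and NADPH had 0 of 11 called between the arms, a median of -0.19 and 9 below 0. The liver pyruvate kinase Pklr, a ChREBP target, had 2063, 2262, 2570.4 and 3470 in MET KO + EGFRi, against 6799, 3766, 3686 and 3961 in control. Like Fasn it stands furthest from control on day 0 and nearest on day 5 (log2 difference -0.78, adjusted p = 0.237). Citrate synthase Cs had -0.66, transketolase Tkt -0.45 and pyruvate carboxylase Pcx 0.47, with adjusted p of 0.0976, 0.363 and 0.322. Idh1, a cytosolic source of NADPH, was the 1 gene of the lists called between days 1, 2 and 5 and day 0, higher after TCPOBOP (log2 0.97, adjusted p = 0.0464).

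Triglyceride assembly had 10 measured genes, with 6 below 0 and 4 above. The 1 called was Pnpla3, a lipid droplet protein under SREBP-1c control, with 302, 450, 366 and 646 in MET KO + EGFRi, against 602, 1871, 782 and 1496 in control (log2 difference -1.21, adjusted p = 0.0422). Its call was lost without any 1 array, with adjusted p from 0.0827 to 0.153. Lpin1, a phosphatidate phosphatase, lay on the other side, with 6660.0, 4536, 3877 and 3831 in MET KO + EGFRi, against 4916, 1630.4, 1477 and 1097 in control. It was higher on 4 of 4 days and missed the threshold (log2 difference 1.24, adjusted p = 0.057). Plin2 had -0.80 and Gpam -0.68, and neither passed the threshold, and the list's median was -0.11.

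Among 17 measured genes of SREBP processing and partner factors 1 was called, and the median was 0.01. Insig1, which holds SREBP in the endoplasmic reticulum and is itself an SREBP target, had 1448, 2637, 2118 and 2785 in MET KO + EGFRi, against 3607, 6130.4, 5285 and 5349.6 in control. The groups do not overlap (log2 difference -1.17, adjusted p = 0.00989). Its call was lost without either array of day 1, with adjusted p of 0.0907 and 0.0922. Scap, Fbxw7 and Usf1 had -0.49, -0.53 and -0.44, with adjusted p of 0.318, 0.413 and 0.323. The last pair turned to 0.23 and 0.14 with plain probe sets only, that is, without names ending in _s_at, _x_at or _a_at. Insulin signalling genes had 0 of 15 called and a median of 0.07. Irs1, an insulin receptor substrate, was lower on 4 of 4 days and missed the threshold (log2 -0.75, adjusted p = 0.0703), while Pik3r1 had 0.52, Irs2 0.39 and Akt1 0.35.

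Genes known to respond to fasting were read beside the lipogenic ones. Of 11 measured, 0 were called, with a median of 0.18. Igfbp1, a gene raised by fasting and by stress, had 14038, 2327, 2367 and 836 in MET KO + EGFRi, against 839, 345, 467 and 726 in control. The arms stood furthest apart on day 0 and closest on day 5, as for Fasn (log2 difference 2.21, adjusted p = 0.139). Pck1 had 0.60, Acot1 -0.73 and Tat 0.50, with adjusted p of 0.225, 0.225 and 0.318. Of 13 measured clock genes 0 were called, with a median of 0.02. The clock gene Ciart had a higher signal in MET KO + EGFRi on each of the 4 days (log2 1.33, adjusted p = 0.103). Nfil3 and Per1 had 1.01 and 0.71, and Dbp had -0.68, with adjusted p of 0.433, 0.244 and 0.594. On day 5 Nfil3 and Dbp went against the sign of their means, with -0.94 and 0.86. Food intake and time of harvest are not given in the labels, and the part of fasting and clock genes in the lipogenic differences was not tested.
Markers of other cell types were read in the same way. The 11 Kupffer cell markers, all above 0 with a median log2 difference of 0.57, summed to 29484 to 51964 in MET KO + EGFRi and 16355 to 36214 in control, with Cd5l called higher (log2 0.95, adjusted p = 0.0468). The 6 measured of 9 neutrophil and monocyte markers summed to 5779.6 to 6462 in MET KO + EGFRi and 2973 to 3318 in control. S100a8 and S100a9 were called higher (1.95 and 1.69, adjusted p of 0.00224 and 0.00506) and carried most of the gap between these sums. S100a8 read 2056 to 2468 in MET KO + EGFRi and 420 to 680 in control, and S100a9 read 1317 to 1564 and 321 to 487. Mpo and Ltf had 0.40 each, Elane 0.01 and Ccr2 -0.05, and none of these was called. The 6 of 8 stellate cell markers summed to 10969 to 14182 in MET KO + EGFRi and 8671.5 to 9176.5 in control, with Dcn called higher (1.00, adjusted p = 0.0298). Dcn alone read 6305 to 9520.1 in MET KO + EGFRi and 3904 to 4369.9 in control, while 4 of the 6 were below 0 and their median was -0.06. Cd5l was called in 0 of 8 fits without 1 array, Dcn in 2 of 8, and S100a8 and S100a9 in 8 of 8. None of the endothelial or cholangiocyte markers was called. The 9 endothelial markers summed to 8249.7 to 11692 in MET KO + EGFRi and 7138 to 10265 in control. The 2 of 6 cholangiocyte markers above the filter summed to 728 to 1322 in MET KO + EGFRi and 749 to 1623 in control. Their part in the lipogenic differences was not tested.

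The 6 genes outside the set whose profile over the 8 arrays lay closest to the members' median profile, by the root mean square difference of centred log2 signals, were Aacs (0.202), Sntb1 (0.219), Gpam (0.229), Ifna2 (0.242), Ctnna3 (0.255) and Sel1l3 (0.267). The members themselves lay at 0.185 for Acss2 to 0.492 for Srebf1. Aacs had 519, 577, 509 and 781 in MET KO + EGFRi, against 2069, 1331, 959 and 1009 in control. Gpam, the first enzyme of glycerolipid synthesis, had 4422, 5063, 5681 and 5184 in MET KO + EGFRi, against 9867, 9127, 6912 and 7193 in control. In both genes, as in the strongest probe set of Acly, the groups do not overlap. The control arrays of days 2 and 5 are likewise below those of days 0 and 1. Of the 6, only Ifna2 passed the threshold between the arms (log2 difference -0.92, adjusted p = 0.0212). The 6 were picked by their values on these same 8 arrays. Their lower signals in MET KO + EGFRi and the fall in control are therefore built in by the choice and add no separate evidence.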

How the data were processed

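Gene expression was measured in pooled mouse livers on 8 Affymetrix arrays. The authors deposited 1 linear intensity per probe set, made with MAS5 according to the submitters' processing notes. In the deposited values each array has a mean of 500 after trimming 2 percent at each end. The MAS5 version is not given in the sources used here.

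The 64 control probe sets were left out. Of the other 45037, the platform's annotation gave 34945 a single gene, 932 several and 9160 none. Signals were taken as log2 after adding 71, the lower quartile of all signals, which understates differences of weak genes. Each gene was represented by the probe set with its highest average signal, and genes under 8.24 on that scale, the median over probe sets, were not tested.

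In limma (3.58.1, R 4.3.3) the fit held arm and day, without interaction, and left 3 residual degrees of freedom; adding arm by TCPOBOP left 2. Variances were moderated with a trend. A gene was called at a Benjamini-Hochberg adjusted p under 0.05 over all genes tested. No group has a replicate, so p-values rest on the spread between days. On simulated data the fit of arm and day called most of the larger planted changes and fewer of the smaller ones, and the interaction fit called none. Alternatives changed the added constant, filter, normalization, probe set choice, variance model and day term, or left out 1 array.

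The members and lists were chosen with earlier results of these data known. All members were named, and from each other list the called genes and up to 4 with the largest difference between arms; markers were given as sums with the called genes. The 6 genes most like the members were named by profile.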

Additional observations from a re-analysis of the deposited data

Results flagged for a closer look

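For 4 of 9 members the arms moved in opposite directions from day 0 on each of days 1, 2 and 5, above day 0 in MET KO + EGFRi and below it in control, as 5.87 percent of all genes did. They were Fasn, Acaca, Elovl6 and Srebf1. The log2 interaction of arm with TCPOBOP was 1.42 for Fasn, 0.53 for Acaca, 0.90 for Elovl6 and 1.28 for Srebf1. In limma's fit the adjusted p was 0.875 for Fasn and 0.999 for the other three, so none passed the threshold, as none of the planted changes did in simulated data, and the opposite directions themselves were not tested. All 3 changes of a gene share the 1 day 0 array of each arm. On day 0 the log2 difference between the arms was -2.20 for Fasn, -0.91 for Acaca, -2.46 for Elovl6 and -1.24 for Srebf1. A start so far below control favours this pattern, and the 5.87 percent is over genes of any day 0 difference.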

How the results depend on the processing

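All 9 members kept a difference below 0 averaged over the days in every one of the 11 alternative settings that gave them a value. Without 1 array the same held for all but Srebf1, whose difference ran from -0.61 to 0.04 (0.0448 without either array of day 0). The members' median ran from -1.14 to -0.82 over the settings and from -1.17 to -0.89 without 1 array. The calls were less steady. Members called lower numbered 0 with no filter on low values, 1 with the mean of probe sets, 1 with plain probe sets only, 1 without a variance trend, and 0 to 4 without 1 array. Elovl6 stayed called in 9 of 11 settings and Me1 in 7, and both in 2 of 8 fits without 1 array, those without an array of day 5. Scd1 was called with the filter at the upper quartile (adjusted p = 0.0401) and with the mean of probe sets (0.046). Genes called between the arms, 70, were 28 with no filter and 20 to 57 without 1 array. Fbxw7 and Usf1 turned to 0.23 and 0.14 with plain probe sets only. Probe sets called were 94 as reported, 29 with no filter, 62 without a variance trend and 18 to 76 without 1 array. Member probe sets called lower were 0 with no filter, 1 without a variance trend, 2 without a day term and 0 to 7 without 1 array. With the mean of probe sets, members at least 2-fold lower were 2 on day 2 and 0 on day 5. For TCPOBOP, genes called were 59 as reported, 26 with no filter, 35 with the mean of probe sets, 34 without a variance trend and 4 to 49 without 1 array, and the members' median of -0.11 ran from -0.56 to 0.23 without 1 array. The interaction of Acss2, 0.21, ran from -0.10 to 0.40 without 1 array. It called 0 genes in every fit run. An array left alone on its day adds nothing to the difference between arms, so both fits of a day rest on the same other days. Since day is a term, the arms are already paired by day, and the labels give no replicate numbers beyond that. Other causes of these shifts were not tested. Without replicate pools, no spread between animals could be measured.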

Other observations

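The 6 member probe sets below the filter read 25.1 to 188 in MET KO + EGFRi and 29 to 1049.7 in control. One of them, for Acss2, is also annotated to a second gene, and it had 79.8, 41.4, 28.1 and 66.2 in MET KO + EGFRi, against 140, 73.3, 137 and 257 in control. The other weak Acss2 probe set had 25.1, 33.3, 32 and 167 in MET KO + EGFRi, against 166, 60.6, 35.1 and 222 in control. Both were lower on 4 of 4 days, as the 2 strong Acss2 probe sets were. The weaker Acacb probe set had 54.6, 98.2, 82.5 and 188 in MET KO + EGFRi, against 65.0, 119, 169 and 105 in control, and was lower on 3 of 4 days. The 2 weak Acly probe sets were lower on 2 of 4 days each.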
